A study of Mus musculus with 36 samples.

Results

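The DNase-seq profiles of B6C3F1 mouse liver after 91 d of phenobarbital (PB) were examined for where in the genome accessibility changed. B6C3F1 is a first-generation hybrid with a C57BL/6 mother and a C3H/He father. All 9 B6C3F1 DNase-seq samples were taken, 5 from PB-treated mice and 4 from vehicle-treated mice, out of 18 DNase-seq samples from both strains and 36 samples in the series, of which the others are RNA-seq. The mice were males, 4 to 5 weeks old on arrival and supplied by Charles River. The PB group drank water with 0.05% PB (wt/vol) and the vehicle group drank water alone. Liver tissue was profiled, not sorted cells. In the 9 C57BL/6 mice, used below as a second set of animals, the dose, route and length of treatment were the same. These mice were 9 to 11 weeks old on arrival, came from Taconic and belonged to a separate earlier study. Their PB came from Hänseler, and that of the B6C3F1 mice from Sigma-Aldrich. Strain therefore cannot be told apart from age, supplier, PB source and study. Each mouse is called by its group and the final digit of its animal number.

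DNase I cuts DNA where nucleosomes are displaced, so a DNase-hypersensitive site (DHS) marks an accessible promoter, enhancer or other regulatory stretch. PB activates the nuclear receptor CAR in hepatocytes, the main cell type of the liver. CAR binds DNA with its partner RXR, typically at repeated hexamers in direct orientation, and its best known targets are the Cyp2b and Cyp2c genes, which encode cytochrome P450 enzymes that oxidise drugs and other foreign compounds. Genes of these families lie side by side in the genome as near-identical neighbours, as do the Mup genes for major urinary proteins, which the liver secretes.

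The reference sequences of 6 regions on which the results below turn are shown first, as GRCm38 plus-strand windows of 300 bases around the centre of each DHS. They come from RefSeq's C57BL/6J reference, and B6C3F1 mice also carry a C3H/He copy that was not read here. Capitals mark every match on either strand to a direct repeat of the hexamer AGNNCA with 4 bases between the copies (DR4), a type of site that CAR with RXR is known to bind. The first is the DHS 5.52 kb upstream of Cyp2b10, the second the Cyp2b10 promoter, the third a DHS 9.44 kb upstream of Nebl and the fourth an intronic DHS of Adamtsl1, each a member of a cluster of changed DHSs. The fifth and sixth, whose nearest genes are Lrrn3 and Gm5088, hold runs of a 5-base unit and were chosen after their values were seen.
Cyp2b10 distal, chr7:25891988-25892287: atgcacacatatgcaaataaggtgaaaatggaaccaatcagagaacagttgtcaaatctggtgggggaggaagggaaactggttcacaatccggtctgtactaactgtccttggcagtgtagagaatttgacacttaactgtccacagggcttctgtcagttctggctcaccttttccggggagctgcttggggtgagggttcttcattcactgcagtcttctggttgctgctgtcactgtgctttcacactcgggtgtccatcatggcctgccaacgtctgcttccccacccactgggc
Cyp2b10 promoter, chr7:25897431-25897730: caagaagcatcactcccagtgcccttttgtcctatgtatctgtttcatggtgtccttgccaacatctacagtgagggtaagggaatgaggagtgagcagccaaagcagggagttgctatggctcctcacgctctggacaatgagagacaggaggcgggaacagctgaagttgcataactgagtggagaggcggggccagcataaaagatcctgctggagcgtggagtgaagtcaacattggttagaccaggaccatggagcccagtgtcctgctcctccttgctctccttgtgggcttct
Nebl distal, chr2:17740421-17740720: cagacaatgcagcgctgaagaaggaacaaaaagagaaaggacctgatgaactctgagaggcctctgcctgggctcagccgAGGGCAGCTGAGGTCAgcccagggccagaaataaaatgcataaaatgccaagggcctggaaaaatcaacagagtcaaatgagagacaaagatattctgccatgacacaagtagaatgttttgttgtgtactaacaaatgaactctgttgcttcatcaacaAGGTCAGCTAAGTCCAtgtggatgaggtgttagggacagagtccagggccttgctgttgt
Adamtsl1 intron, chr4:86066296-86066595: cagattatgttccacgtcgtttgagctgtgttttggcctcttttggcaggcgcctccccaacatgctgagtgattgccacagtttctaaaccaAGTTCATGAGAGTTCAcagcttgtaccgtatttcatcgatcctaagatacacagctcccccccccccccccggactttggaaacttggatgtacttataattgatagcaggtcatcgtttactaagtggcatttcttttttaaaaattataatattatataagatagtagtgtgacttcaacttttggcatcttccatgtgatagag
Lrrn3 distal, chr12:42228287-42228586: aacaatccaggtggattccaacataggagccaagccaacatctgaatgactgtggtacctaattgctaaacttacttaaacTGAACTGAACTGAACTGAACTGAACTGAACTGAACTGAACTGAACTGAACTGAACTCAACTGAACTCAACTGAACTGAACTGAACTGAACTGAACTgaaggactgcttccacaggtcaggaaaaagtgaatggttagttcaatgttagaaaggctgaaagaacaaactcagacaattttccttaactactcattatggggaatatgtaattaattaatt
Gm5088 distal, chr14:89668810-89669109: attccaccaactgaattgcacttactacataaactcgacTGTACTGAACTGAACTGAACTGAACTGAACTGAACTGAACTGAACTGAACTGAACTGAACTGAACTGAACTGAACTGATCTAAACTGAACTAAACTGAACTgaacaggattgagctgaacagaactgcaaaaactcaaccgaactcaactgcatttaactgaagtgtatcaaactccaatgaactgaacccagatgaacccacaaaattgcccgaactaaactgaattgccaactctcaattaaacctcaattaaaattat

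The deposited table holds 98170 DHSs in mm10 coordinates, with a normalized count for each DHS in each mouse, which is the number of reads multiplied by a factor that is constant within a mouse. In mega-reads (M), the depth in DHSs was 24.4, 14.9, 7.01 and 18.8 M in vehicle mice 1, 2, 3 and 5 and 17.6, 18.9, 16.0, 25.7 and 14.5 M in PB mice 1 to 5. Vehicle mouse 3 stood apart, and the deepest B6C3F1 mouse had 3.66 times its reads. The groups did not differ in reads beyond the spread between mice (16.3 ± 7.29 M with vehicle, SD, n = 4, against 18.5 ± 4.32 M with PB, SD, n = 5, two-sided exact permutation test, p = 0.571, where 0.0159 is the smallest p possible). In RNA-seq of the same animals, all 10 hepatocyte markers were measured, and their summed level was 112482 to 120817 CPM (library-size-scaled counts) in vehicle mice and 98118 to 111654 CPM in PB mice, so the ranges did not overlap. None of the 10 passed the RNA test alone, and the median log2 fold change of their RNA was -0.02. A sum of CPM is weighted to the most abundant markers. The part of this difference in the results below was not tested. The summed levels of 10 endothelial markers (694 to 760 with vehicle, 698 to 781 CPM with PB), 10 Kupffer cell and macrophage markers (218 to 279.9 and 227 to 281 CPM), 10 stellate cell markers (440.1 to 578 and 365 to 481 CPM), 7 of 8 biliary markers (40.7 to 57.01 and 40.9 to 47.8 CPM) and 6 of 10 lymphocyte markers (14.5 to 18.1 and 13.4 to 18.03 CPM) overlapped between groups. In whole liver, a change in the number of cells of a type cannot be told apart from a change of accessibility per cell.

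PB was tested against vehicle with limma on log2(normalized count + 1), and a DHS was called at an absolute log2 fold change (FC) of at least 0.58 and a Benjamini-Hochberg false discovery rate (FDR) of at most 0.01. Every log2 FC below is on this scale, which understates changes at low counts. More accessible were 166 DHSs, 0.169% of those tested, and less accessible were 21, 0.0214%. The DHS called with the highest FDR had an FDR of 0.00990, and the next one not called, with a large enough change, had 0.0101. The number of calls depended on single mice. It fell to 59 without PB mouse 3 and lay at 80 to 120 without PB mouse 1, 2 or 4 or vehicle mouse 1 or 2, and it rose to 306 without PB mouse 5.

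The changed DHSs lay close together. When called DHSs with centres at most 50 kb apart were chained, 78 of the 187 (41.7%) fell into 24 clusters of 2 or more, while 1.05% of all 98170 DHSs had another called DHS within that distance. The clusters comprised 6 of 3 or more DHSs and 18 pairs, and 109 called DHSs stood alone. No cluster mixed directions. More accessible DHSs made up 21 clusters (72 of 166 DHSs, 43.4%) and less accessible DHSs made up 3 (6 of 21 DHSs, 28.6%). Of the 167 distances between neighbouring called DHSs on a chromosome, 30 were at most 5 kb, only 8 lay between 50 and 500 kb, and 100 were over 1 Mb, whereas the median distance between neighbouring DHSs of any kind was 7.20 kb. The spans of the clusters held 31 DHSs that were not called, and 27 of these had a positive log2 FC. They include 3 in the less accessible pair at Mfsd2a, of which 0 were positive.

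**Figure D1:**
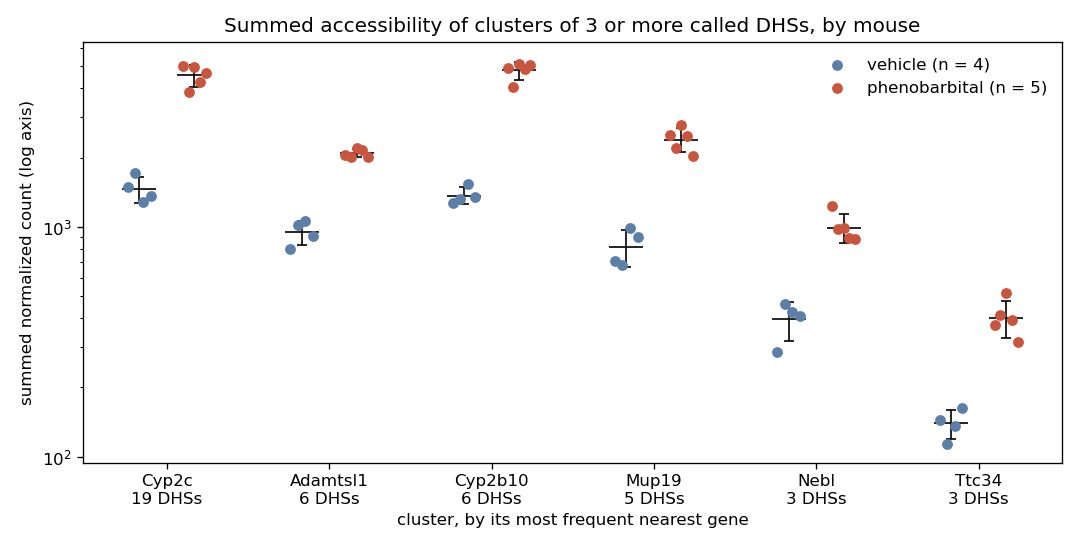
Summed normalized counts (log axis) of the called DHSs in each of the 6 clusters of 3 or more, with 1 point per mouse, horizontal marks for means and bars for SD. In all 6 clusters, every PB mouse lay above every vehicle mouse, which follows from how the DHSs were chosen.

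The largest cluster lay in the Cyp2c gene family on chromosome 19 and held 19 called DHSs, 11.4% of all increases, over 163 kb (chr19:39169858-39333140). The span overlaps Cyp2c66, the pseudogene Cyp2c53-ps and Cyp2c29, and its last DHSs lie nearest to Cyp2c39. The members' summed normalized count was 1491, 1708, 1281 and 1358 in vehicle mice 1, 2, 3 and 5 and 5029.9, 3854, 4966, 4263 and 4687 in PB mice 1 to 5. Every PB mouse lay far above every vehicle mouse, and the mean sum was 3.13 times as high with PB. The log2 FC of single members ran from 0.93 to 4.04 with a median of 1.77, and their vehicle means ran from 8.36 to 462. Of the 29 DHSs in the span, 10 were not called, and 9 of those 10 were also positive, with a median log2 FC of 0.92.

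The Cyp2c members fell into neighbourhoods of unequal change. Of the 5 largest increases of the whole data set, 3 stood side by side within Cyp2c66. The first of them (chr19:39174598-39174777, intronic) had normalized counts of 20.1, 24.6, 3.69 and 16.2 in vehicle mice 1, 2, 3 and 5 and 159, 119, 195, 124 and 145 in PB mice 1 to 5 (log2 FC 3.35 ± 0.40 (SE), FDR 7.08e-04). The second (chr19:39176281-39176970, exonic) went from 22.7 ± 12.6 (SD, n = 4) to 352 ± 107 (SD, n = 5) (log2 FC 4.04 ± 0.38 (SE), FDR 3.61e-04), the largest log2 FC of all called DHSs. The third (chr19:39178017-39178293, intronic) had 23.2, 1.76, 3.69 and 12.2 in vehicle mice 1, 2, 3 and 5 and 165, 86.2, 201, 101 and 95.6 in PB mice 1 to 5 (log2 FC 3.95 ± 0.54 (SE), FDR 0.00487) and was called in 4 of the 9 fits that left out a mouse, with 1 read behind the value of vehicle mouse 3. At all 3 sites every vehicle mouse had at most 38.0 normalized counts. Every PB mouse lay above every vehicle mouse, as at all 166 increases.

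Further along, the DHS at the Cyp2c53-ps promoter (chr19:39228954-39229440) rose from 121 ± 26.1 (SD, n = 4) to 405 ± 36.7 (SD, n = 5) (log2 FC 1.76 ± 0.16 (SE), FDR 7.38e-06), and its neighbour 1.73 kb upstream of the start site (chr19:39227368-39227691) from 122 ± 25.4 (SD, n = 4) to 416 ± 65.6 (SD, n = 5) (log2 FC 1.77 ± 0.17 (SE), FDR 1.37e-05). The most accessible member with vehicle lay 16.4 kb upstream of the same start site (chr19:39212465-39213288) and had 468, 639, 328 and 412 in vehicle mice 1, 2, 3 and 5 and 1222, 900.0, 1302, 1044 and 1004 in PB mice 1 to 5 (log2 FC 1.27 ± 0.16 (SE), FDR 0.00202). Of the called members, the smallest change lay near the start of Cyp2c29. There the DHS 2.42 kb upstream (chr19:39284515-39284817) rose from 180.2 ± 12.6 (SD, n = 4) to 347 ± 63.2 (SD, n = 5) (log2 FC 0.93 ± 0.15 (SE), FDR 0.00464), and 4 neighbours within 5 kb of it were not called, with log2 FCs of 0.42, 0.39, 0.32 and -0.28. Inside Cyp2c29, the intronic DHS at chr19:39302930-39303400 rose from 72.4 ± 16.5 (SD, n = 4) to 239 ± 36.5 (SD, n = 5) (log2 FC 1.73 ± 0.20 (SE), FDR 1.45e-04).

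Outside the cluster, 2 more Cyp2c DHSs were called. The promoter of Cyp2c55 (chr19:39006626-39007120) had 133, 169, 111 and 146 in vehicle mice 1, 2, 3 and 5 and 447, 388, 393, 317 and 397 in PB mice 1 to 5 (log2 FC 1.48 ± 0.16 (SE), FDR 5.54e-05), and a DHS 18.3 kb upstream of Cyp2c66 (chr19:39095371-39095744) rose from 27.3 ± 10.6 (SD, n = 4) to 181 ± 28.4 (SD, n = 5) (log2 FC 2.75 ± 0.26 (SE), FDR 1.02e-05). RNA of the genes in and beside the cluster did not all move the same way. Cyp2c29, an abundant hepatic P450, measured 2554 ± 284 CPM (SD, n = 4) with vehicle and 7724 ± 694 CPM (SD, n = 5) with PB (limma log2 FC 1.60 ± 0.08 (SE), FDR 2.70e-11). Cyp2c66 RNA was 0.0339, 0, 0 and 0 CPM in vehicle mice 1, 2, 3 and 5 and 33.0, 24.5, 30.8, 23.8 and 26.3 CPM in PB mice 1 to 5 (FDR 2.51e-16). Cyp2c53-ps measured 8.15 ± 2.56 CPM (SD, n = 4) with vehicle and 159 ± 19.0 CPM (SD, n = 5) with PB (limma log2 FC 4.30 ± 0.16 (SE), FDR 5.23e-11), and Cyp2c55 23.7 ± 3.60 CPM (SD, n = 4) with vehicle and 481 ± 65.1 CPM (SD, n = 5) with PB (limma log2 FC 4.34 ± 0.20 (SE), FDR 2.43e-09). Cyp2c39, nearest to the last 3 DHSs of the cluster, went the other way, with 53.2, 55.9, 78.4 and 60.3 CPM in vehicle mice 1, 2, 3 and 5 and 8.95, 25.2, 6.51, 10.2 and 31.6 CPM in PB mice 1 to 5 (log2 FC -2.16 ± 0.42 (SE), FDR 0.00451, called in 2 of the 9 fits that left out a mouse). All 3 of those DHSs rose, with log2 FCs of 1.50, 1.84 and 1.36. The Cyp2c genes are similar in sequence, and the reads of near copies that the mapping filter dropped are not in these values.

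**Figure D2:**
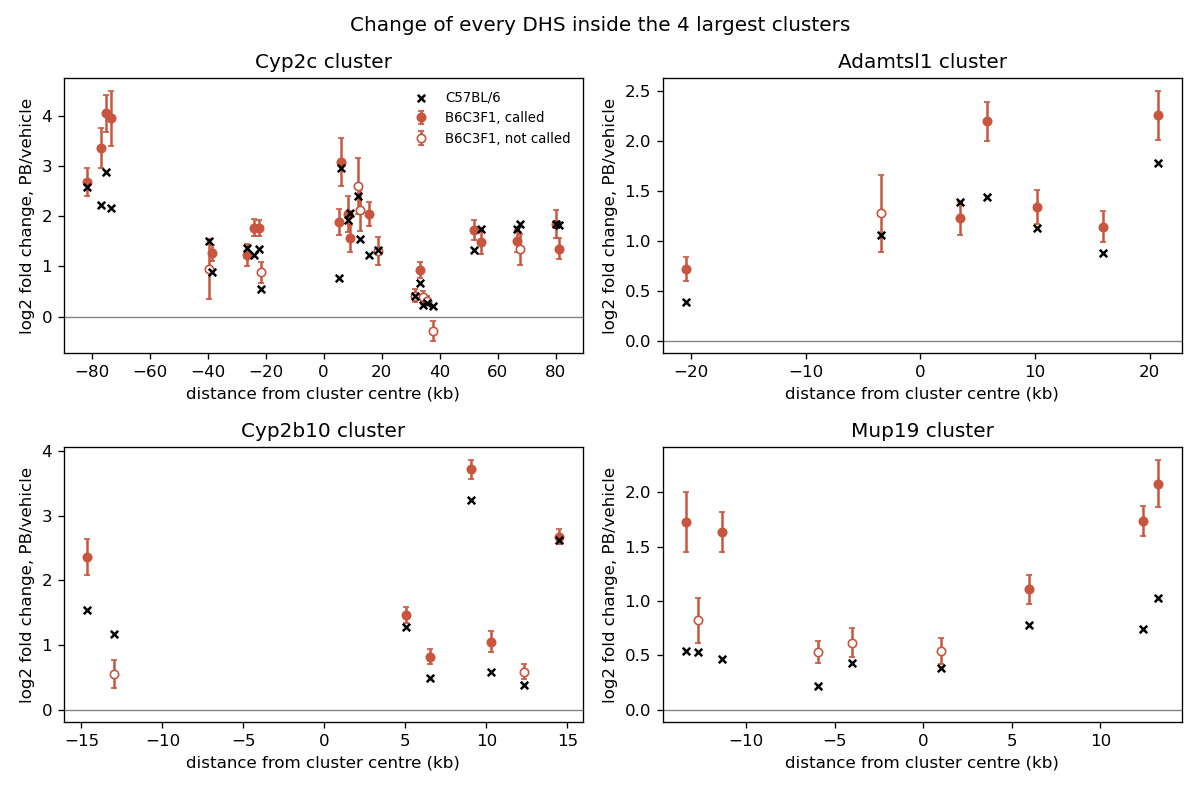
log2 FC (PB over vehicle, with SE for B6C3F1) of every DHS in the 4 largest clusters against its distance from the cluster centre in kb. Filled points were called in B6C3F1, open points were not, and crosses show the same DHS in C57BL/6 mice. In the Cyp2c panel the highest point lies at -74.9 kb, and the points at 31.5 to 37.7 kb, around the Cyp2c29 start, lie below 1.

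The Cyp2b10 cluster on chromosome 7 held 6 called DHSs over 29.5 kb upstream of and at the gene (chr7:25868340-25897814). Its summed normalized count was 1266, 1325, 1531 and 1349 in vehicle mice 1, 2, 3 and 5 and 4909, 4040.5, 5129, 4866 and 5052 in PB mice 1 to 5, 3.51 times as high with PB. The first 2 windows shown above belong to it. The distal one (chr7:25891833-25892442) had 58.1, 75.5, 81.2 and 62.2 in vehicle mice 1, 2, 3 and 5 and 955, 760.5, 1058, 955 and 861 in PB mice 1 to 5 (log2 FC 3.71 ± 0.15 (SE), FDR 1.12e-11), and the promoter (chr7:25897346-25897814) had 205, 256, 218 and 206 in vehicle mice 1, 2, 3 and 5 and 1366, 1204, 1586, 1468 and 1461 in PB mice 1 to 5 (log2 FC 2.67 ± 0.11 (SE), FDR 1.16e-11). The promoter reached the highest level with PB of all 166 more accessible DHSs. The other 4 members, 4.31, 8.08, 9.58 and 29.2 kb upstream, had log2 FCs of 1.05, 0.82, 1.46 and 2.36. The member 29.2 kb upstream began low and went from 22.8 ± 8.04 (SD, n = 4) to 118 ± 24.0 (SD, n = 5), while those at 8.08 and 9.58 kb began at 398.6 ± 43.0 and 404 ± 16.3 (SD, n = 4). Within the cluster, the largest log2 FC belonged to a site that began at 69.2 normalized counts and the smallest to one that began at 398.6. Cyp2b10 RNA was 16.7, 8.36, 16.4 and 5.51 CPM in vehicle mice 1, 2, 3 and 5 and 1662, 1179, 1737, 1381 and 1634 CPM in PB mice 1 to 5 (limma log2 FC 7.13 ± 0.28 (SE), FDR 4.66e-10). The neighbouring family member Cyp2b13 had 1 called DHS, at its promoter (chr7:26060590-26060989, from 22.7 ± 9.62 (SD, n = 4) to 89.7 ± 19.4 (SD, n = 5), log2 FC 1.98 ± 0.29 (SE), FDR 0.00159), and its RNA was 0.237, 0.0672, 0.317 and 0 CPM in vehicle mice 1, 2, 3 and 5 and 52.1, 94.2, 52.3, 61.8 and 46.0 CPM in PB mice 1 to 5.

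The Adamtsl1 cluster on chromosome 4 held 6 called DHSs over 41.8 kb (chr4:86029596-86071416), with 1 upstream of the gene, 1 at its start and 4 in introns. Adamtsl1 encodes a secreted protein of the extracellular matrix. The summed count was 805, 1019.8, 1055 and 909 in vehicle mice 1, 2, 3 and 5 and 2046, 2020.2, 2195, 2167 and 2015 in PB mice 1 to 5, 2.21 times as high with PB. The PB mice differed little from each other here. The largest changes were those of 2 narrow intronic DHSs. One (chr4:86056162-86056407, 246 bp) had 45.4, 64.9, 40.6 and 39.2 in vehicle mice 1, 2, 3 and 5 and 228, 199.7, 244, 224 and 191 in PB mice 1 to 5 (log2 FC 2.19 ± 0.20 (SE), FDR 6.08e-06), and the other (chr4:86071120-86071416, 297 bp) rose from 33.7 ± 9.22 (SD, n = 4) to 163 ± 39.7 (SD, n = 5) (log2 FC 2.25 ± 0.25 (SE), FDR 8.58e-05). The DHS at the start site (chr4:86053627-86054332) rose from 135 ± 35.8 (SD, n = 4) to 309 ± 12.4 (SD, n = 5) (log2 FC 1.22 ± 0.17 (SE), FDR 9.44e-04), and vehicle mouse 3 was the highest vehicle mouse there. The intronic DHS with the DR4 match shown above rose from 165 ± 25.8 (SD, n = 4) to 363 ± 48.7 (SD, n = 5) (log2 FC 1.14 ± 0.15 (SE), FDR 9.12e-04). Adamtsl1 RNA was 1.42, 1.85, 2.78 and 1.90 CPM in vehicle mice 1, 2, 3 and 5 and 10.5, 9.18, 10.5, 9.84 and 12.1 CPM in PB mice 1 to 5 (limma log2 FC 2.37 ± 0.17 (SE), FDR 3.26e-09).

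The fourth cluster lay among the Mup genes on chromosome 4, with 5 called DHSs over 26.9 kb between Mup19 and Mup5 (chr4:61782363-61809299). Its summed count was 708, 679, 985 and 902 in vehicle mice 1, 2, 3 and 5 and 2497, 2193, 2777, 2477 and 2042 in PB mice 1 to 5, 2.93 times as high with PB. The DHS 26.0 kb upstream of Mup19 (chr4:61807955-61808455) had 176, 133, 173 and 179.8 in vehicle mice 1, 2, 3 and 5 and 505, 498, 639, 553 and 563 in PB mice 1 to 5 (log2 FC 1.73 ± 0.14 (SE), FDR 1.79e-06), and its neighbour (chr4:61808901-61809299) rose from 97.1 ± 40.8 (SD, n = 4) to 387 ± 24.8 (SD, n = 5) (log2 FC 2.08 ± 0.22 (SE), FDR 1.05e-04). The 4 uncalled DHSs of the span were all positive, with a median log2 FC of 0.58. A further Mup DHS, in Mup17 (chr4:61591160-61592114, 955 bp, one of the 3 widest of the increases), rose from 50.5 ± 12.3 (SD, n = 4) to 152 ± 30.3 (SD, n = 5) (log2 FC 1.58 ± 0.22 (SE), FDR 0.00127). RNA of Mup5, Mup17 and Mup19 was not analysed here. Another called Mup DHS, nearest to Mup9 and also outside the cluster (chr4:60429668-60429850), had a log2 FC of 1.40 ± 0.21 (SE) (FDR 0.00213). Mup9 RNA measured 132 ± 33.2 CPM (SD, n = 4) with vehicle and 705 ± 136 CPM (SD, n = 5) with PB (limma log2 FC 2.42 ± 0.41 (SE), FDR 0.00151). Mup genes are near-identical copies, so their reads may be split or dropped between copies.

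The clusters of 3 were compact. At Nebl on chromosome 2, which encodes the actin-binding protein nebulette, 3 DHSs lay within 9.88 kb (chr2:17731002-17740881), 2 at the promoter and 1 upstream. The promoter DHS at chr2:17731002-17731437 had 27.5, 35.1, 18.5 and 31.1 in vehicle mice 1, 2, 3 and 5 and 229.9, 176, 186, 145 and 145 in PB mice 1 to 5 (log2 FC 2.63 ± 0.23 (SE), FDR 6.08e-06), and its neighbour at chr2:17731712-17732419 rose from 52.0 ± 17.2 (SD, n = 4) to 162 ± 30.6 (SD, n = 5) (log2 FC 1.68 ± 0.25 (SE), FDR 0.0018). The upstream DHS, whose window above holds 2 DR4 matches, rose from 316 ± 58.6 (SD, n = 4) to 653 ± 89.4 (SD, n = 5) (log2 FC 1.06 ± 0.14 (SE), FDR 7.71e-04). Nebl RNA was 0.542, 1.18, 1.37 and 0.930 CPM in vehicle mice 1, 2, 3 and 5 and 26.9, 13.5, 30.4, 22.0 and 14.4 CPM in PB mice 1 to 5 (limma log2 FC 4.28 ± 0.34 (SE), FDR 4.25e-07). The other cluster of 3 was intergenic, 57.1 to 65.2 kb upstream of Ttc34 on chromosome 4 (chr4:154771972-154780579), and its summed count was 145, 114, 137 and 164 in vehicle mice 1, 2, 3 and 5 and 376, 412, 517, 391 and 317 in PB mice 1 to 5. The narrowest of its members (chr4:154775505-154775643, 139 bp) had 12.7, 1.76, 3.69 and 8.11 in vehicle mice 1, 2, 3 and 5 and 42.7, 61.6, 57.1, 36.8 and 44.3 in PB mice 1 to 5 (log2 FC 2.94 ± 0.47 (SE), FDR 0.00353), with 1 read behind the value of vehicle mouse 3.

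Among the pairs, Abcc4, an efflux transporter, had 2 intronic DHSs. The one 2.61 kb into the gene (chr14:118674191-118674451) rose from 47.2 ± 14.7 (SD, n = 4) to 161 ± 30.7 (SD, n = 5) (log2 FC 1.77 ± 0.22 (SE), FDR 3.80e-04) and the one at 41.2 kb (chr14:118635380-118636024) from 369 ± 20.2 (SD, n = 4) to 591 ± 53.3 (SD, n = 5) (log2 FC 0.68 ± 0.11 (SE), FDR 0.00544). Abcc4 RNA measured 3.73 ± 0.743 CPM (SD, n = 4) with vehicle and 31.9 ± 10.5 CPM (SD, n = 5) with PB (limma log2 FC 3.02 ± 0.22 (SE), FDR 1.95e-07). Cdh1, which encodes E-cadherin, had a DHS at its start (chr8:106603249-106603447, 42.1 ± 6.51 (SD, n = 4) to 132 ± 31.6 (SD, n = 5), log2 FC 1.60 ± 0.23 (SE), FDR 0.00152) and another in an intron 2.48 kb further on (chr8:106605633-106606030, log2 FC 1.32 ± 0.23 (SE), FDR 0.009, called in 1 of the 9 fits that left out a mouse). Cdh1 RNA measured 30.4 ± 6.57 CPM (SD, n = 4) with vehicle and 84.9 ± 20.6 CPM (SD, n = 5) with PB (limma log2 FC 1.47 ± 0.19 (SE), FDR 1.69e-04). A pair near Pnliprp1, a pancreatic-lipase-related gene, had a median log2 FC of 2.25, and Pnliprp1 RNA was 0.136, 0.0672, 0 and 0 CPM in vehicle mice 1, 2, 3 and 5 and 14.4, 7.60, 12.8, 12.6 and 8.46 CPM in PB mice 1 to 5 (limma FDR 1.96e-09).

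The pair far upstream of Lrrn3 had the largest ratio of all clusters, with a mean summed count 8.22 times as high with PB. One member (chr12:42221082-42221369) had 10.6, 5.27, 3.69 and 1.35 in vehicle mice 1, 2, 3 and 5 and 91.4, 49.2, 85.6, 61.6 and 67.3 in PB mice 1 to 5 (log2 FC 3.73 ± 0.44 (SE), FDR 1.99e-04), and the other, shown above, had 32.7, 19.3, 44.3 and 17.6 in vehicle mice 1, 2, 3 and 5 and 209, 174, 263, 184 and 200.1 in PB mice 1 to 5 (log2 FC 2.89 ± 0.26 (SE), FDR 6.08e-06). Lrrn3 itself lies 735 kb or more away, and its RNA measured 20.6 ± 2.14 CPM (SD, n = 4) with vehicle and 19.5 ± 2.05 CPM (SD, n = 5) with PB (limma log2 FC -0.08 ± 0.09 (SE), FDR 0.661), which did not pass the test.

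Increases that stood alone included 4 of the 10 largest. The DHS in an intron of Micall2 (chr5:139707213-139707476) rose from 7.37 ± 5.54 (SD, n = 4) to 61.8 ± 15.6 (SD, n = 5) (log2 FC 3.16 ± 0.46 (SE), FDR 0.00179), and those nearest to Lyzl1 (chr18:4089020-4089255), Susd2 (chr10:75675311-75675517) and Pepd (chr7:34981828-34982026) had log2 FCs of 3.16, 3.11 and 3.05. All 4 had vehicle means of at most 9.67. At the other end of the scale, the called increases with the highest vehicle means included a DHS near 1700052I22Rik (chr12:80930077-80930539, 875 ± 65.5 (SD, n = 4) to 1324 ± 116 (SD, n = 5), log2 FC 0.60 ± 0.09 (SE), FDR 0.00167) and one nearest to Gadd45a (chr6:67149491-67150070, 476 ± 51.1 (SD, n = 4) to 749 ± 53.3 (SD, n = 5)).

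Decreases were smaller on the log2 scale, with a median log2 FC of -1.13 against 1.58 for increases, and began higher. In normalized counts the order was the other way, with a median difference of -158 for decreases and 114 for increases. The 10 largest decreases ran from -2.34 to -1.13 on the log2 scale. The pair nearest to Tmem114, 235 to 236 kb away, comprised the 2 largest, and the stronger (chr16:8189184-8189388) had 57.02, 56.2, 36.9 and 62.2 in vehicle mice 1, 2, 3 and 5 and 5.89, 10.9, 12.7, 12.9 and 7.08 in PB mice 1 to 5 (log2 FC -2.34 ± 0.39 (SE), FDR 0.00565). The DHS near Tnfsf4, which encodes a ligand that co-stimulates T cells (chr1:161378614-161379036), had 436, 511, 498 and 481 in vehicle mice 1, 2, 3 and 5 and 192, 243, 198, 284 and 166 in PB mice 1 to 5 (log2 FC -1.17 ± 0.15 (SE), FDR 7.03e-04). That DHS and the one nearest to Gm34637 (chr12:12541496-12541973, log2 FC -1.59, FDR 0.00108) were the only 2 decreases called in all 9 fits that left out a mouse. Of the 21 decreases, 3 lay at promoters. The promoter of Htra1, a secreted serine protease (chr7:130935624-130936175), fell from 132 ± 17.7 (SD, n = 4) to 56.8 ± 11.2 (SD, n = 5) (log2 FC -1.22 ± 0.22 (SE), FDR 0.0094, called in 1 of 9 such fits), and that of Mfsd2a, a lysophospholipid transporter (chr4:122961035-122961459), from 549 ± 74.6 (SD, n = 4) to 311 ± 54.3 (SD, n = 5) (log2 FC -0.83 ± 0.14 (SE), FDR 0.00789, called in 2 of 9). RNA of Htra1 (FDR 0.323) and Mfsd2a (FDR 0.0624) did not pass the test. Of 10 genes nearest to a decrease with RNA tested, 2 fell, namely Spink5, a protease inhibitor (log2 FC -1.72, FDR 0.00505), and the nucleotidase gene Nt5e (log2 FC -0.98, FDR 0.00251), beside 0.448% of all 13838 genes tested.

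By chromosome, the share of DHSs called more accessible ran from 0.0393% on chromosome 3 to 0.780% on chromosome 19, apart from chromosome Y, where none of 28 was called. Chromosomes 19, 4 and 7 together carried 72 of the 166 increases (27, 24 and 21). On chromosome 19, 19 of 27 belonged to the Cyp2c cluster. Less accessible DHSs numbered at most 3 on any chromosome.

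When all DHSs in a fixed window of 100 kb were summed, whether called or not, 39 of 13582 windows passed the same cutoffs (0.287%), 29 up and 10 down. Of these windows, 17 held 2 or more called DHSs, 16 held 1 and 6 held none. The Cyp2b10 window (chr7:25800001-25900000, 18 DHSs) went from 3386 ± 333 (SD, n = 4) to 7204 ± 526 (SD, n = 5; log2 FC 1.09 ± 0.07 (SE), FDR 2.35e-06), and the densest Cyp2c window (chr19:39200001-39300000, 19 DHSs) from 3167 ± 398 to 5629 ± 354 (log2 FC 0.84 ± 0.08 (SE), FDR 5.31e-05). Of the 6 windows without a called DHS, the one near Prok2 on chromosome 6 (chr6:99700001-99800000) rose from 80.4 ± 20.0 to 298 ± 62.2 over 4 DHSs (log2 FC 1.89 ± 0.20 (SE), FDR 0.000222), and the one near Maf on chromosome 8 (chr8:115200001-115300000) fell from 654 ± 89.2 to 347 ± 50.3 over 4 DHSs (log2 FC -0.91 ± 0.13 (SE), FDR 0.00233). Windows are named here after their values were seen.

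In sums that left out the called DHSs, 7 windows passed, 4 up and 3 down. They included a Mup window (chr4:61700001-61800000, log2 FC 0.60 ± 0.07 (SE), FDR 0.00289) and the Nebl window (chr2:17700001-17800000, log2 FC 0.68 ± 0.09 (SE), FDR 0.00724). A window on chromosome 10 (chr10:10800001-10900000) fell over its 6 uncalled DHSs (log2 FC -1.08 ± 0.11 (SE), FDR 0.00108). At Cyp2b10 the uncalled DHSs of the window had a log2 FC of 0.26 (FDR 0.175).

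Uncalled DHSs near a more accessible one also tended upward. Within 5 kb of one, 114 DHSs were not called, and their median log2 FC was 0.52, with 104 (91.2%) positive. The median was 0.22 at 5 to 20 kb (244 DHSs), 0.15 at 20 to 50 kb (490), 0.02 at 50 to 200 kb (1876) and -0.02 beyond 1 Mb (86706). In the C57BL/6 mice, which had no part in choosing these DHSs, the medians in the first 4 of these classes were 0.35, 0.16, 0.09 and 0.02, and 87.7% of the nearest DHSs were positive against 49.4% of all uncalled DHSs. These values describe the DHSs, which are not independent of each other.

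**Figure D3:**
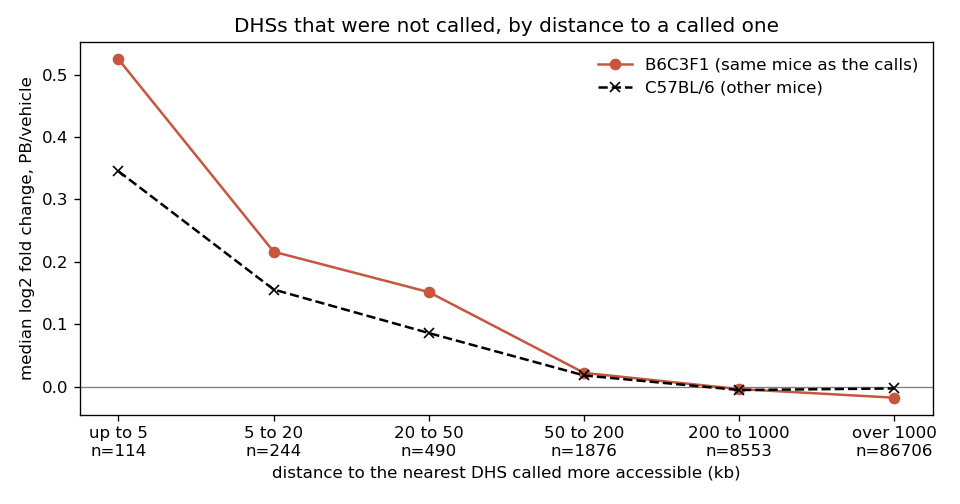
Median log2 FC (PB over vehicle) of DHSs that were not called in B6C3F1, by distance in kb to the nearest DHS called more accessible, with the number of DHSs under each class. Both lines come down from the first class (0.52 in B6C3F1, 0.35 in C57BL/6) to near 0 beyond 50 kb.

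More accessible DHSs began low. Their median vehicle level was 51.9 normalized counts, against 116 over all DHSs, and PB brought the median to 171. Less accessible DHSs began at a median of 287 and went to 134. Since the vehicle mice also entered the test, the level in vehicle C57BL/6 mice was used as a second measure. There the medians were 75.5 for the DHSs that rose, 319 for those that fell and 112 for all, and 104 of 166 increases (62.7%) but 1 of 21 decreases lay below the median of all DHSs. When all DHSs were split by that level into 10 classes of equal number, 0.489% of class 1, the lowest (below 36.8 normalized counts), was more accessible, 0.122 to 0.183% of each of classes 2 to 9, and 0.0204% of class 10. Apart from 1 DHS in class 3, decreases lay in classes 6 to 10, at 0.0204 to 0.0611% of each. Counts end at 1 read, so a fall from the lowest levels can hardly be seen, which limits where decreases can be called. After treatment, 118 of the 166 increases stood above the median DHS of PB mice. A DHS was listed when at least 3 samples had a peak, so one with a low vehicle level may be listed only through PB mice. Starting level, also when taken in C57BL/6 mice, is therefore not independent of the change.

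**Figure D4:**
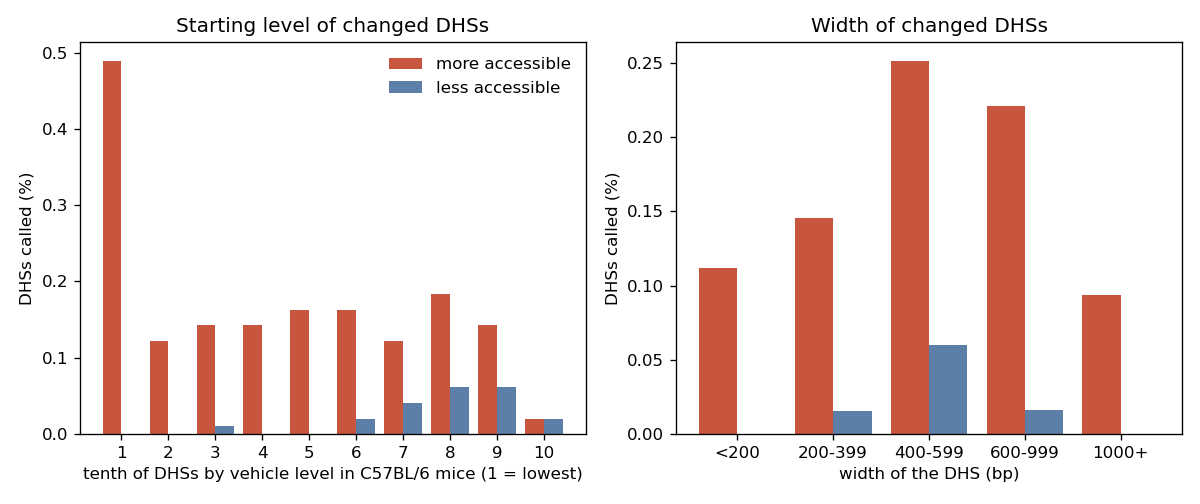
Percent of DHSs called in each of 10 equal classes of the vehicle level in C57BL/6 mice (left, 1 is the lowest) and in each class of width in bp (right), for more accessible and less accessible DHSs. Class 1 stands out at 0.489% more accessible, and widths from 400 to under 600 bp have the highest shares in both directions, 0.251% and 0.0603%. Peaks of PB mice helped to decide which DHSs were listed, so neither level nor width is independent of the change.

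Changed DHSs were somewhat wider than the rest, with a median of 394 bp for increases and 430 bp for decreases against 316 bp for all. The share more accessible was 0.112% under 200 bp, 0.146% from 200 to under 400 bp, 0.251% from 400 to under 600 bp, 0.221% from 600 to under 1000 bp and 0.0940% (2 of 2128) from 1000 bp. Wider DHSs also held more reads, with a median in vehicle mouse 3 of 13 under 200 bp and 159 from 600 to under 1000 bp, so width was also read within 3 equal groups of the C57BL/6 vehicle level. In the low group, the share rose with width, from 0.135% under 200 bp (19 of 14125) and 0.239% in the next class (43 of 17956) to 1.99% from 400 to under 600 bp (12 of 604) and 10.5% from 600 to under 1000 bp (4 of 38). In the middle group it went from 0.0284% to 0.952% over the same classes, and in the high group it was 0.137% and 0.101% in the last 2 of these classes. Peaks of PB mice also shaped the consensus DHSs, so width is not independent of the change. Clustered and single increases had median widths of 386.5 and 399.5 bp, median vehicle levels of 50.8 and 53.1 and median log2 FCs of 1.73 and 1.50. Promoters, defined here as up to 1 kb upstream of a start site or over it, made up 8.43% of all increases (12.5% of clustered and 5.32% of single increases), 14.3% of decreases and 14.1% of all DHSs.

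Low values rested on few reads. In the lowest of 10 equal classes of the B6C3F1 vehicle level, the median DHS held 6 reads in vehicle mouse 3 and 26 in PB mouse 4. Of the 166 increases, 26 (15.7%) held at most 3 reads in vehicle mouse 3, compared with 3.02% of all DHSs, and 12 held the lowest value of 1 read, which may stand for 0. At least 10 reads were present in each of the 4 vehicle mice at 104 increases and all 21 decreases. When all mice were thinned to the reads of vehicle mouse 3, 97 increases and 9 decreases were called, of which 88 and 6 were among those called at full depth. Without vehicle mouse 3, 223 increases were called, of which 135 were among the 166. By starting level, increases called went with thinning from 78 to 40 in the low group of the C57BL/6 vehicle level, from 51 to 36 in the middle group and from 37 to 21 in the high group. In every one of the 9 fits that left out 1 mouse, the same 50 of the 166 increases were called, 30 of the 72 in clusters and 20 of the 94 that stood alone.

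The clusters of 3 or more differed in this respect. After thinning, all 6 Cyp2b10 DHSs, all 5 Mup DHSs, all 3 Nebl DHSs, 5 of 6 Adamtsl1 DHSs, 2 of 3 Ttc34 DHSs and 12 of 19 Cyp2c DHSs were called. In all 9 fits that left out a mouse, 5 Cyp2b10, 5 Adamtsl1, 4 Mup, 2 Nebl, 9 Cyp2c and 0 Ttc34 DHSs were called.

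The response of each mouse was also read at DHSs that B6C3F1 mice did not choose. At the 323 DHSs called more accessible in C57BL/6 mice, the median log2 difference from the B6C3F1 vehicle mean was 1.42, 1.27, 1.56, 1.33 and 1.28 in PB mice 1 to 5 and 0.00, -0.34, 0.34 and 0.09 in vehicle mice 1, 2, 3 and 5. No PB mouse overlapped a vehicle mouse, and the deepest PB mouse, 4, lay within the range of the shallower ones. At the 37 DHSs less accessible in C57BL/6, PB mice had medians of -0.94 to -0.52 and vehicle mice -0.20 to 0.23.

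**Figure D5:**
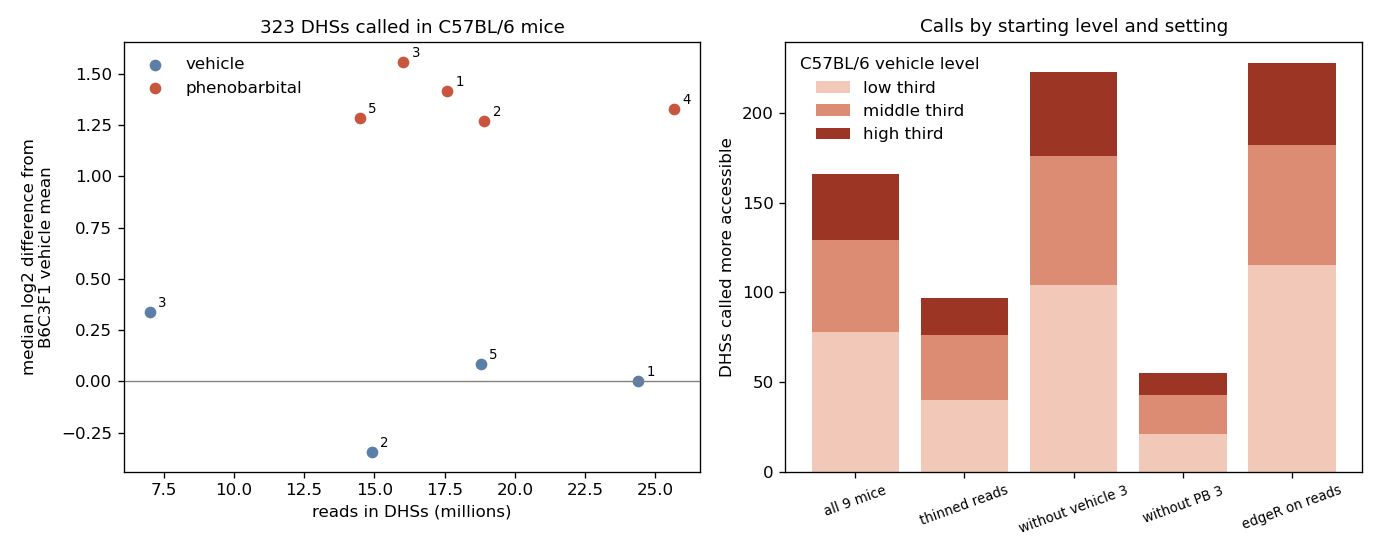
Left, median log2 difference of each B6C3F1 mouse from the vehicle mean at 323 DHSs called in C57BL/6 mice, against its reads in DHSs (M), with mice numbered. Right, DHSs called more accessible in B6C3F1 under 5 settings, stacked by 3 equal groups of the C57BL/6 vehicle level; PB mice lie at 1.27 to 1.56 at every depth, and the 166 calls from all 9 mice become 97 after thinning and 55 without PB mouse 3.

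Most of the changed DHSs moved in the same direction in the C57BL/6 mice, where 0.367% of all DHSs were called in either direction by the same test and cutoffs. Of the 166 increases, 163 had a positive log2 FC there, with a median of 1.14, and 98 were called. All 21 decreases had a negative log2 FC, with a median of -0.36, and 1 was called. The members were chosen by their values in B6C3F1, so the sizes of change in the 2 strains are not set against each other here. In the Cyp2c cluster 17 of 19 DHSs were called in C57BL/6, in the Adamtsl1 cluster 5 of 6, in the Cyp2b10 cluster 4 of 6 and in the Mup cluster 3 of 5. The summed count of the 5 Mup DHSs was 1442 to 1791 in C57BL/6 vehicle mice and 2399 to 2873 in C57BL/6 PB mice, so the C57BL/6 vehicle mice lay above all B6C3F1 vehicle mice (679 to 985). The choice of increases in B6C3F1 favours low B6C3F1 vehicle values. Over all 166 increases, the median vehicle level was also higher in C57BL/6 than in B6C3F1 (75.5 against 51.9), while over all DHSs it was 112 against 116. The Cdh1 pair had a median log2 FC of 0.15 in C57BL/6. In a fit of all 18 mice, no DHS had a PB response that differed between strains at an FDR of 0.01 by limma (lowest FDR 0.199, with 5294 at an unadjusted p under 0.05). That test covers the response to PB only, and the difference between vehicle mice at the Mup DHSs was not tested. Reads of B6C3F1 mice were aligned to the C57BL/6 reference, and what part alleles of C3H/He had in any value was not tested.

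RNA of the same animals was tested with limma on log2(CPM + 0.1). Higher with PB were 1.55% of 13838 genes and lower were 0.448%. Of the genes with the start site nearest to a more accessible DHS, 79 of 119 had RNA tested, and 22 of them (27.8%) rose and 1 fell. For genes nearest to clustered increases the count was 10 of 15 higher and 1 lower, and for genes nearest to single increases it was 13 of 65 (20.0%) higher and 0 lower. When all genes with a start site within 100 kb of an increase were taken, 34 of 210 (16.2%) rose. So most genes near a single more accessible DHS did not pass the RNA test. Of genes nearest to a decrease, 0 of 10 rose.

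Among 331 DHSs nearest to the 46 genes of CAR and phase I metabolism, enzymes that oxidise, reduce or hydrolyse foreign compounds, 21 (6.34%) were more accessible by limma, beside 0.169% of all DHSs, and 0 less accessible, beside 0.0214%. They lay by 8 genes, of which Cyp2b10, Cyp2b13, Cyp2c29, Cyp2c39, Cyp2c55 and Cyp2c66 are described above. The other 2 had 1 called DHS each. The promoter of Ces2c, a carboxylesterase (chr8:104846817-104847234), rose from 134 ± 13.4 (SD, n = 4) to 255 ± 38.2 (SD, n = 5) (log2 FC 0.91 ± 0.16 (SE), FDR 0.00929), and Ces2c RNA measured 29.6 ± 3.34 CPM (SD, n = 4) with vehicle and 85.6 ± 10.4 CPM (SD, n = 5) with PB (limma log2 FC 1.53 ± 0.13 (SE), FDR 4.25e-07). A DHS 17.3 kb upstream of Aldh1a7, an aldehyde dehydrogenase (chr19:20744567-20745174), rose from 344 ± 42.3 (SD, n = 4) to 586 ± 101 (SD, n = 5) (log2 FC 0.76 ± 0.14 (SE), FDR 0.00984), while its RNA did not pass (FDR 0.0588). Both DHSs were called in 1 of the 9 fits that left out a mouse. At RNA level 19 of the 41 genes tested in the list rose and 5 fell, beside 1.55% and 0.448% of all genes tested. Of the 237 DHSs of 33 phase II enzymes and transporters, which conjugate and export such compounds, 2 (0.844%) were called by limma, both nearest to Abcc4. By the same cutoffs edgeR called 3 DHSs of this list, limma-voom 6 and DESeq2 9. At an unadjusted limma p under 0.05, 38 of the 237 DHSs of this list were higher and 1 was lower, beside 8997 of all 98170 DHSs in either direction. RNA of 16 of its 32 genes tested rose.

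By 16 genes of growth arrest and cell cycle, 3 of 146 DHSs (2.05%, beside 0.169% of all DHSs) were more accessible, those nearest to Gadd45a, Gadd45b and Stat3. The Gadd45b DHS was called in all 9 fits that left out a mouse, the Gadd45a DHS in 3 and the Stat3 DHS in 0. Gadd45b encodes a stress-induced growth arrest protein. Its DHS, 28.0 kb from the start site within Gng7 (chr10:80957847-80958280), had 107, 84.3, 84.9 and 185 in vehicle mice 1, 2, 3 and 5 and 321, 386, 265, 277 and 427 in PB mice 1 to 5 (log2 FC 1.59 ± 0.22 (SE), FDR 0.00147). Gadd45b RNA was 0.441, 0.437, 0.352 and 1.27 CPM in vehicle mice 1, 2, 3 and 5 and 11.6, 2.43, 5.86, 5.94 and 1.84 CPM in PB mice 1 to 5 (limma log2 FC 2.82 ± 0.49 (SE), FDR 0.00126), and all PB mice lay above all vehicle mice. RNA of Gng7 (FDR 0.86), Gadd45a (FDR 0.242) and Stat3 (FDR 0.339) did not pass. For 24 genes of Wnt signalling and perivenous liver, 2 of 217 DHSs (0.922%) were called, the Cdh1 pair, with 3 called by edgeR, 3 by limma-voom and 6 by DESeq2. For 24 genes of TGF-beta and Smad signalling none of 260 DHSs was called by limma, with 16 higher and 17 lower at an unadjusted p under 0.05. By the same cutoffs edgeR called 2 of these DHSs, limma-voom 2 and DESeq2 8. None of the DHSs of the marker lists was called by limma, that is of 142 hepatocyte DHSs (6 higher and 8 lower at an unadjusted p under 0.05), 101 endothelial (1 and 3), 18 Kupffer cell (0 and 1), 39 stellate cell (1 and 2), 33 biliary (1 and 3) and 13 lymphocyte DHSs (1 and 0). DESeq2 called 1 hepatocyte and 1 stellate cell DHS, and edgeR none of the marker lists' DHSs.

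The sequences of the changed DHSs were searched on both strands for 8 motifs in windows of 300 bases. DR4, spelled AGNNCA, 4 bases and AGNNCA again, was found in 22 of the 166 more accessible windows (13.3%), 1 of the 21 less accessible windows (4.76%) and 3.20% of all 98170. Neither Cyp2b10 window shown above holds a DR4 match, while the Nebl window holds 2 and the Adamtsl1 window 1. The AP-1 motif TGANTCA was in 19.3% of increases and 10.7% of all windows. The C/EBP motif TTGCNNAA was in 10 of 21 decreases (47.6%), 18.7% of increases and 18.9% of all. For the other motifs, DR1 (AGNNCA, 1 base, AGNNCA) was in 8.43% of increases and 6.59% of all, FOXA (TGTTTAC) in 4.82% and 7.41%, STAT (TTCNNNGAA) in 7.83% and 10.6%, ARE (TGACNNNGC) in 18.1% and 13.9%, and TCF (CTTTGAT) in 9.04% and 5.58%. Of the 21 decreases, 4 (19.0%) held the STAT motif, 3 ARE, 2 AP-1, 1 DR1, 1 TCF and 0 FOXA. ARE and AP-1 matches can overlap. The median GC content was 46.5% for increases, 44.0% for decreases and 47.7% for all windows. These shares describe the letters of the windows and are no test of a factor.

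The DR4 matches of the Lrrn3 and Gm5088 windows come from runs of the unit TGAAC. Because 2 hexamers of 6 bases with a spacing of 4 fall in step with a unit of 5 bases, every further copy adds a match. Runs of at least 4 such copies occurred in the windows of 2 of all 98170 DHSs, with 11 and 14 copies. These were the Lrrn3 and Gm5088 DHSs, both called more accessible. The unit was chosen after the values of these DHSs were seen, so their calls are no test of the unit. The Gm5088 DHS (chr14:89668707-89669212, 227 kb upstream) had 45.4, 22.8, 33.2 and 20.3 in vehicle mice 1, 2, 3 and 5 and 149, 93.0, 179, 149 and 297 in PB mice 1 to 5 (log2 FC 2.44 ± 0.30 (SE), FDR 4.55e-04), and in C57BL/6 mice both rose too (log2 FC 2.16, FDR 3.81e-08 for Lrrn3 and log2 FC 1.41, FDR 6.62e-07 for Gm5088). Most windows with many DR4 matches were not called. Of the 24 windows with 5 or more DR4 matches, 3 were called, beside 0.169% of all DHSs called more accessible. These 3 were the Lrrn3 and Gm5088 windows themselves and that of a DHS nearest to Prr16. A positive log2 FC was found in 15 of the 24, beside 47.4% of all uncalled DHSs. Repeated sequence is hard to align uniquely, and its part in the Lrrn3 and Gm5088 values was not tested.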

How the data were processed

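DNase-seq and RNA-seq had been made from liver of the same mice, which are separate animals. Per the labels and the study's methods, the authors aligned DNase-seq reads to mm10 with Bowtie2 2.1.0, kept reads with a mapping quality over 12, called peaks with MACS2 2.1.1.20160309 at q 0.01 and counted reads in consensus DHSs with DiffBind 1.16.3. The deposited signal per DHS and mouse is a normalized count. In each mouse all values were whole multiples, within 0.05 of a step, of 1 factor, so raw counts were recovered from what the authors deposited. The RNA signal that the authors deposited is CPM, TMM-scaled counts by library size, after STAR 2.4.0f1 and edgeR 3.12.1.

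The 5 PB and 4 vehicle B6C3F1 mice were compared with limma 3.58.1 (R 4.3.3) on log2(normalized count + 1), with trend and robust variance, and called at an absolute log2 FC of 0.58 and a Benjamini-Hochberg FDR of 0.01. RNA used log2(CPM + 0.1), all 18 RNA samples and genes of at least 0.4 CPM in 3 samples of a group. Windows of 100 kb with at least 2 DHSs were summed and tested in the same way. Genes and sequences came from RefSeq (GRCm38.p6), read with pysam 0.24.0 in Python 3.11.15, and 13347 of 13862 RNA genes matched by symbol. The columns were tied to samples by name. Depth was 7.01 to 25.7 M reads (mega-reads) in DHSs per B6C3F1 mouse. Intervals between mice cover animals and counting error together.

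DHSs named are those in clusters of at least 3, the 10 largest changes, the 3 widest and the 3 highest in vehicle mice in each direction, and called DHSs nearest to listed genes. Genes named are their nearest genes, those spanning a cluster, and listed genes within 100 kb that passed the RNA test. Some items that this rule names are not reported here. The Lrrn3, Gm5088, Mup9 and pair DHSs outside this rule, the TGAAC unit and the windows were named after their values were seen. Members, lists and tests were chosen with earlier results of these data known. Alternatives were other pseudocounts, filters and scalings, edgeR 4.0.16, DESeq2 1.42.0 and voom on the recovered reads, sample weights, thinning, a replicate block and leaving out each mouse. The edgeR exact test (prior df 50) and windows without called DHSs were added after seeing the data. In simulated data, 137 of 200 changed DHSs among 98170, 184 of 200 windows among 13582 and 131 of 200 genes among 13838 were recovered, with 0 wrong calls. The simulation used a fixed dispersion of 0.05 and changes larger than the smallest called here. Its changed DHSs and genes were not drawn from the lowest levels. These counts are therefore not error rates of the real data.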

Additional observations from a re-analysis of the deposited data

Results flagged for a closer look

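Of 232 groups of values examined (the named DHSs and genes, in vehicle and in PB mice), 20 held a mouse far from the others of its group by Dixon's test, which flags about 1 in 20 groups by chance. At Adamtsl1, vehicle mouse 3, the shallowest, was high at the start site (188, others 112 to 125 normalized counts) and at chr4:86060476-86060879 (185, others 107 to 118), and PB mouse 4 was low at the start site (288, others 310.5 to 319). Vehicle mouse 3 was also high at the Mfsd2a promoter (661, others 506 to 523).

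At the Abcc4 DHS chr14:118674191-118674451, vehicle mouse 5 was high (69.0, others 37.0 to 42.1) and so was PB mouse 2 (213, others 136 to 158). PB mouse 2 was high at the decrease near Mir6540 (190.1, others 98.7 to 122) and low at the Cyp2b10 DHS chr7:25889271-25889879 (588, others 719 to 759). PB mouse 5 was high at the Cyp2c39 DHS chr19:39317928-39318227 (244, others 144 to 169.6). Vehicle mouse 2 was low at the Mup19 DHS chr4:61807955-61808455 (133, others 173 to 179.8), and vehicle mouse 5 was high at the Htra1 promoter (158, others 121 to 125).

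In RNA, PB mouse 5 was high for Cyp2c29 (8907, others 7184 to 7660 CPM) and for Ifi47, an interferon-induced GTPase gene (34.3, others 23.4 to 25.6 CPM). Vehicle mouse 2 was high for Cyp2c53-ps (12.0, others 6.69 to 7.05 CPM) and low for Smpd3 (1.54, others 2.43 to 2.60 CPM). Vehicle mouse 5 was high for Gadd45b (1.27, others 0.352 to 0.441 CPM). Vehicle mouse 1 held the highest of 4 very low values for Cyp2c65 (0.0678, others 0.0336 to 0.0372 CPM), and was alone above 0 for Cyp2c66 (0.0339 CPM), Krt79 (0.102 CPM) and Tmprss7 (0.102 CPM).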

How the results depend on the processing

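No result reversed. Under fits that pool or weight the spread in other ways, the 187 calls (166 higher, 21 lower, 24 clusters) became 617 (451 higher, 166 lower, 92 clusters) with DESeq2, 630 (462, 168, 94) with all 18 mice in the fit, 424 (334, 90, 67) with sample weights, 724 (464, 260, 115) with the edgeR exact test chosen after seeing the data, and 496 (372, 124, 76) at an FDR of 0.05. A pseudocount of 10 gave 234 calls, of which 35 were lower and the rest higher, with 35 clusters, edgeR's quasi-likelihood test 228 higher, 46 lower and 41 clusters by TMM and 204, 46 and 35 by library totals, and voom 206, 59 and 35, with 140 of its increases among the 166. The share of increases among calls, 88.8% as reported, was 73.1% with DESeq2, 73.3% with all mice, 77.7% with voom, 78.8% with weights and 64.1% with the exact test. Thinned reads gave 106 (97, 9, 11). All 77 named DHSs kept their direction under the 14 alternatives other than leaving out a mouse, and 45 of them were called after thinning. In clusters stood 31.6% of calls when no uncalled DHS was allowed between members, against 41.7%. Increases under 400 bp, 52.4% as reported, were 62.3% with DESeq2, 66.0% with all mice, 64.2% with the exact test and 62.6% at an FDR of 0.05, and those below the median vehicle level, 72.9%, were 65.5% with voom. The median width of increases, 394 bp as reported, was 332 bp with all mice, 338 bp with the exact test and 436 bp after thinning. All DHSs had a median of 316 bp, so the excess in width was small with all mice and with the exact test. Of all 98170 DHSs, 17891 were under 200 bp and 46040 from 200 to under 400 bp. By the share under 400 bp, increases were thus no wider than all DHSs with all mice and hardly wider with the exact test. Leaving out each mouse in turn gave 59 to 306 calls, 55 to 223 higher, 4 to 103 lower, 6 to 45 clusters, 32.5 to 49.2% in clusters, 38.5 to 55.7% under 400 bp, 63.6 to 77.0% below the median, and 24 to 92 windows against 39. The fewest calls came without PB mouse 3 and the most without PB mouse 5. Windows numbered 4 at 1 Mb and 7 without called DHSs, an alternative added after seeing the data. RNA calls, 277, were 182 with the 9 B6C3F1 samples alone. The causes of these shifts were not tested.

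With the replicate number as a block, 58 DHSs were called (57 higher, 1 lower, 6 clusters), 13 windows and 126 genes, and 28 of the 77 named DHSs. Mice with the same number did not deviate together (r = -0.07, -0.09, 0.03 and -0.20 for the 4 pairs), so the numbers do not pair the samples. At the lowest depth, 1 read of vehicle mouse 3 is worth 3.69 normalized counts, and smaller differences cannot be seen there.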

Other observations

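The 100 kb window near Ackr3, which encodes an atypical chemokine receptor, held 9 DHSs of which none was called, yet all 9 had a positive log2 FC and their sum went from 797 ± 73.7 (SD, n = 4) to 1403 ± 259 (SD, n = 5) normalized counts (limma log2 FC 0.80 ± 0.13 (SE), FDR 0.00621), a call that held in 2 of the 9 fits that left out a mouse. The Prok2 window, with 4 of 4 DHSs positive, held in all 9 of those fits, and the Maf window, with 0 of 4 positive, in 7.

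Some genes near called DHSs had RNA at or near 0 in every vehicle mouse. Tmprss7, a serine protease gene, was listed at 0.102, 0, 0 and 0 CPM in vehicle mice 1, 2, 3 and 5 and at 2.68, 0.974, 2.52, 1.87 and 0.828 CPM in PB mice 1 to 5. Krt4, a keratin gene of epithelia, had 0.0678, 0.0336, 0 and 0.112 CPM with vehicle and 13.2, 2.51, 16.3, 7.46 and 2.59 CPM with PB. In both, PB mice 1 and 3 were the highest and PB mice 2 and 5 among the lowest.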
